A study of Mus musculus with 6 samples.

Results

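Pipox, which encodes the peroxisomal oxidase of L-pipecolic acid and sarcosine, was examined together with 34 further genes named for peroxisomal functions, 35 of the 54446 genes in the count table. The genes were matched by symbol, and all 35 were found once. Pipox was included because its counts were lower in the knockouts in an earlier reading of the same comparison, so its fold change describes how it was chosen and is not a test. The 34 others were listed for their role in the peroxisome, with results of these data already known.

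Peroxisomes are small organelles that shorten very-long-chain and branched fatty acids, break down the hydrogen peroxide made by their own oxidases, and carry out steps of ether lipid and bile acid synthesis. Their enzymes are made in the cytosol and imported by peroxins, the proteins that also form the organelle. In the absorptive cells of the small intestine they are known for their part in handling dietary lipid, and many of their genes are targets of the fatty acid receptor PPAR-alpha.

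RNA was sequenced from small-intestinal epithelium of 6 co-housed mice aged 3 to 4 months, 1 library a mouse. The cells were washed and squeezed out of 10 cm segments, which the titles call jejunum and the series text jejunum and ileum. The 3 control mice were Prkci flox/flox, and the 3 knockout mice were Prkci flox/flox with Villin-CRE, so that both groups carry the floxed alleles and only the knockouts carry the recombinase. Prkci encodes the atypical protein kinase C iota/lambda, and the villin promoter drives the recombinase in intestinal epithelium. An effect of the recombinase itself and of the deletion cannot be told apart in this design. By its title, the study concerned the transcripts of enterocytes that lack the kinase.

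The libraries held 18972906 to 26687856 counts. Prkci was 44.0 to 46.9 CPM (counts per 1e+06 counts of the library's scaled size) in controls and 14.6 to 21.5 CPM in knockouts. The labelled epithelium carried its defining markers. All 12 epithelial markers were measured, with summed levels of 11359.5 to 11800.6 CPM in controls and 12403.2 to 14140.6 CPM in knockouts, and all 15 enterocyte markers, at 59141.5 to 69991.4 and 60366.3 to 80062.5 CPM. Genes of other cells moved with genotype or with single libraries. Of 12 T cell markers, all were measured, and they summed to 182 to 314 CPM in controls and 369 to 889 CPM in knockouts. Smooth muscle markers (5 of 8 tested) summed to 245 to 262 and 266 to 341 CPM. At an unadjusted p, 4 of the 5 were higher (9.32% of all genes), but 4 of the 5 overlapped between genotypes. The median of their log2 fold changes was 3.49. Their mean level against the control mean was −0.30 to 0.55 log2 CPM in controls and 2.78, −0.61 and 3.64 in knockout replicates 1 to 3. The tuft cell markers (7 of 7) were at 242 to 301 CPM in controls and at 252, 21.7 and 31.6 CPM in knockout replicates 1 to 3. Macrophage and dendritic markers (8 of 10 tested) summed to 16.2 to 17.5 and 32.5 to 47.0 CPM. Villus base and crypt genes (12 of 12) summed to 1885 to 3008 CPM in controls and 1154, 17031 and 7628 CPM in knockout replicates 1 to 3. The 12 did not move together, with 5 negative log2 fold changes, a median of 0.30, and 11 genes overlapping between genotypes. Of them, 1 was lower and 0 higher at an unadjusted p (7.09% and 9.32% of all genes). Distal small-intestinal genes (9 of 10) summed to 2442.5 to 2807 CPM in controls and 2381, 6268 and 5723 CPM in knockout replicates 1 to 3. Proximal genes (10 of 10) summed to 5431 to 6298 CPM in controls and 4174, 4797 and 5931 CPM in those knockouts. Their mean level against the control mean was −0.24 to 0.46 log2 CPM in controls and −0.34, 1.53 and 1.77 in the knockouts. The proximal genes did not move together, with 6 negative log2 fold changes, a median of −0.06 and a highest value of 5.93. Between genotypes, 7 of them overlapped. Of the 10, 2 were lower and 4 higher at an unadjusted p (7.09% and 9.32% of all genes). Paneth cell genes (7 of 7) were at 1635 to 5826 and 765 to 1395 CPM, B and plasma cell genes (8 of 8) at 33.04 to 132 and 149 to 331 CPM, and enteroendocrine genes (8 of 8) at 237 to 294 and 359 to 458 CPM. No marker in these lists was at 0 in all libraries. The loci Gm26917 and Gm42418, which overlap ribosomal repeats, took 2.16% to 2.91% of control counts and 4.89% to 5.91% of knockout counts. For 3 libraries (control replicates 2 and 3, knockout replicate 3), the sex that the series text gives was not the one read from Xist and Ddx3y. Read that way, 1 control and 2 knockouts were female. The part of these differences in the results below was not tested, other than by the fit with sex as a term. In such bulk RNA, fewer cells of a type and less RNA per cell cannot be told apart.

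Pipox and Cat (catalase, which breaks down hydrogen peroxide) were lower by the largest amounts among the tested enzymes. Of the 8 members grouped under beta-oxidation, 4 were lower at an unadjusted p by smaller amounts. The median of the peroxins lay close to 0. The difference between roles was not tested. Since Pipox was chosen for its difference, the counts leave it out first. Of the 33 other members that passed the filter on low counts, 23 had a negative log2 fold change (69.7%, against 49.3% of the 15068 genes tested). The median log2 fold change over these 33 was −0.17, against 0.01 over all genes tested. By edgeR, 0 of the 33 passed the adjusted threshold of 0.05 in either direction, where 0.00664% of all genes were called lower and 0.0531% higher. Prkci itself did not pass that threshold either, at a log2 fold change of −1.24 and an edgeR adjusted p of 0.0719. At an unadjusted p below that threshold, 9 of the 33 were lower and 1 was higher, where 7.09% of all genes tested were lower and 9.32% higher. In 10 of the 33, every knockout library lay below every control library, which held for 11.7% of all genes tested, and in 0 did every knockout library lie above (10% of all genes). With DESeq2, 3 of the 33 were lower, namely Cat, Hsd17b4 and Ppara, and 0 were higher, where 1.95% of genes were called lower and 3.6% higher. Pipox itself was below each of these thresholds, which makes 24 negative, 10 lower at an unadjusted p, 11 without overlap and 4 by DESeq2 among all 34, with a median of −0.18. It was the 1 gene of the 15068 called lower by edgeR, and nothing is read from that share. With the replicate number as a block, 0 of the 34 passed. Over the 34, Pipox included, scaling to library totals gave 12 lower and 1 higher at an unadjusted p (10% and 6.61% of all genes), and scaling to the epithelial markers gave 12 and 0 (11.1% and 6.41%).

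**Figure D1:**
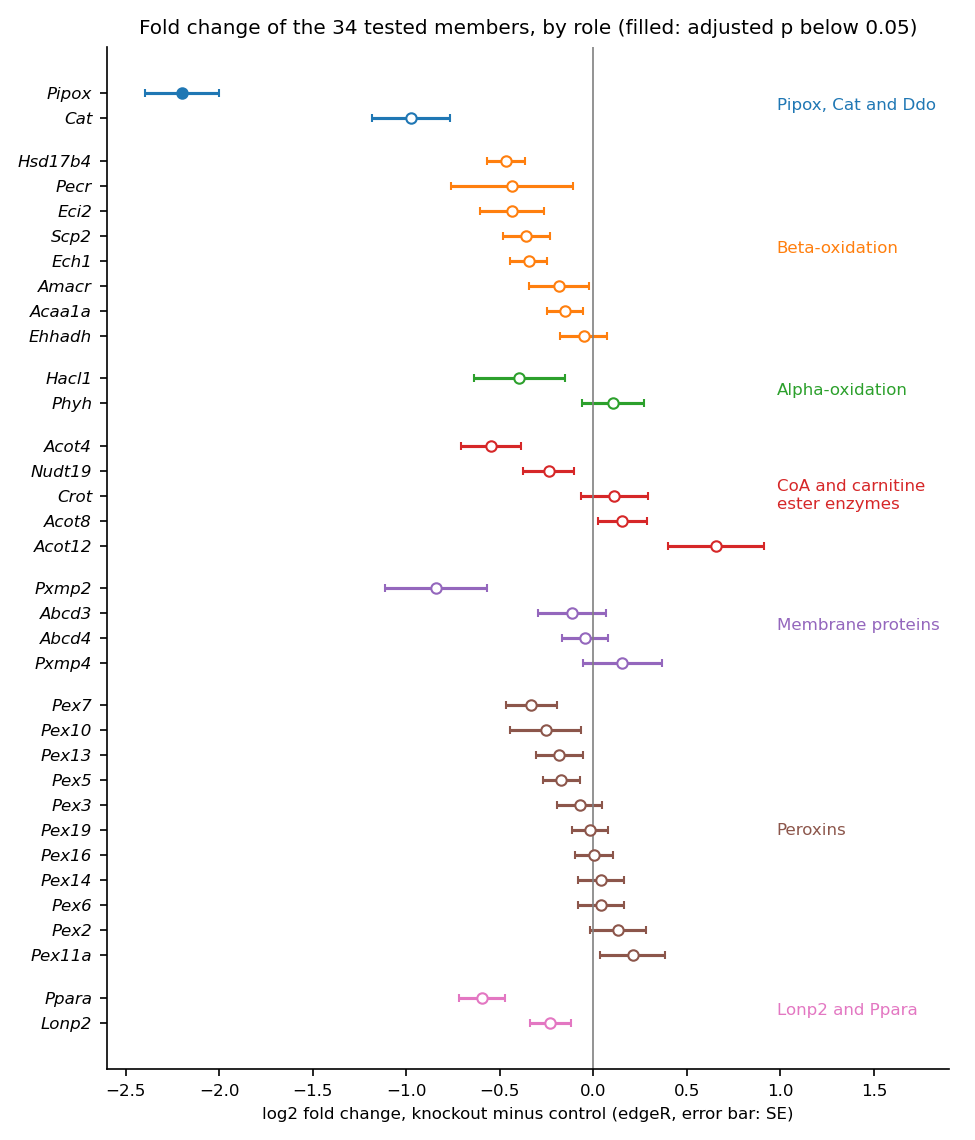
Points are edgeR log2 fold changes (knockout minus control) of the 34 tested members, grouped by role, and bars are standard errors. Pipox at −2.20 is the 1 filled point, and the 11 peroxins lie between −0.33 and 0.21.

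Levels differed widely among the members. Per kilobase of exon, the control means ran from 0.0223 CPM for Ddo, the D-aspartate oxidase gene, to 117 CPM for Phyh, which encodes the first enzyme of phytanic acid breakdown. Cat stood at 112 CPM per kb, and Abcd3 and Hsd17b4 at 62.3 CPM per kb each. Pipox was of middle level, at 10.96 CPM per kb in controls and 2.39 CPM per kb in knockouts. Ddo did not pass the filter, with 14 counts in the controls together and 5 in the knockouts together, and it was not tested.

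**Figure D2:**
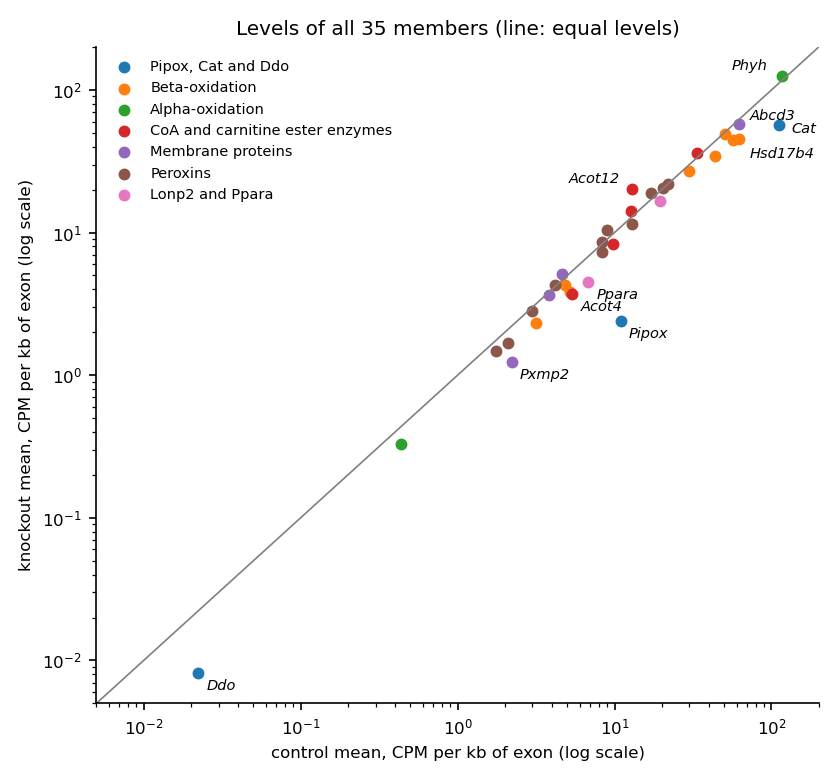
Each point is a member's mean CPM per kb of exon in controls (x) and knockouts (y), both on log scales, coloured by role, and the line marks equal levels. Pipox lies farthest below the line among the tested members, and Phyh and Cat have the highest control means, 117 and 112 CPM per kb.

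The start-site windows of 4 members are shown, Pipox for the largest difference among the tested members and the others because they hold the element searched for. Many peroxisomal genes carry the element bound by PPAR-alpha with its partner RXR. The RefSeq windows (build GRCm38.p6, which is mm10) from 250 bases before to 50 bases after the start site were at hand for 29 of the 35 members. They were searched on both strands for the direct repeat AGGTCANAGGTCA, allowing 2 mismatches in its 12 fixed bases. The element was found in windows of 3 members, Cat, Acot4 and Acot12, and in 4.4% of all genes with a window (3.86% of all windows). A match is a description of the letters and not evidence of binding, and the absence of one says only that these letters are not in this window. Capitals mark the match.
Pipox, chr11:77893823-77894122, minus strand: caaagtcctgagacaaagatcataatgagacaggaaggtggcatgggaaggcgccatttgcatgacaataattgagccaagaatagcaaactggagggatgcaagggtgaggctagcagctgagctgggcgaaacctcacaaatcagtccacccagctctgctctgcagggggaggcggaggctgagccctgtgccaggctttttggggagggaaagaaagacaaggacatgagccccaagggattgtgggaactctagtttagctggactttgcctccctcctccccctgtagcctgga
Cat, chr2:103485104-103485403, minus strand: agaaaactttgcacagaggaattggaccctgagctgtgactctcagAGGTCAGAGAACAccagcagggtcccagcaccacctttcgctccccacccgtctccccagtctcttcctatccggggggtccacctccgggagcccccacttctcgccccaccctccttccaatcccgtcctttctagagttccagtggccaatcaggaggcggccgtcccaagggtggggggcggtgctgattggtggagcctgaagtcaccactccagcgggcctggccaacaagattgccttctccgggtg
Acot4, chr12:84038129-84038428, plus strand: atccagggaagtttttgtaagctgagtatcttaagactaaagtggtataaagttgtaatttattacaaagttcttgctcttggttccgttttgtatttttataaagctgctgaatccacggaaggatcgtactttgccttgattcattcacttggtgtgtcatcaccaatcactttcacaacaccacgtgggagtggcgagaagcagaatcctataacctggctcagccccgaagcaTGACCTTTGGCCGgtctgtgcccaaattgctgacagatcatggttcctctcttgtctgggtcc
Acot12, chr13:91741271-91741570, plus strand: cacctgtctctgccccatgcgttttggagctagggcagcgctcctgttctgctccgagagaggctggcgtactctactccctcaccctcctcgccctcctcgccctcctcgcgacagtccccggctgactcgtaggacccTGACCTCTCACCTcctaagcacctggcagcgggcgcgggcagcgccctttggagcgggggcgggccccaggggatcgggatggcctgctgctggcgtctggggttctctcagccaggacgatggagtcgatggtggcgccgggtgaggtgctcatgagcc
The Pipox window held no match and 3 CpG pairs, against a median of 7 over all windows. A count of 3 or fewer was common, at 31.4% of all windows. The matches in Cat and Acot4 had 2 mismatches and that in Acot12 had 1. These 3 genes did not share a direction, since Cat and Acot4 were lower in the knockouts and Acot12 was higher, each at an unadjusted p.

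Pipox (ENSMUSG00000017453.4, chromosome 11, 77880615 to 77894096, minus strand) stood at 24.9, 29.8 and 26.5 CPM in control replicates 1 to 3 and at 6.63, 6.71 and 4.37 CPM in knockout replicates 1 to 3. The groups lay far apart, and knockout replicate 3 was the lowest. The total was 1914 counts in the controls and 394 in the knockouts, and the mean was 78.2% lower. Its edgeR log2 fold change was −2.20 (SE 0.20). The edgeR adjusted p by which it stood out was 0.0232, against 0.139 with the replicate block. Leaving out any control or knockout replicate 3 also ended the call. The edgeR adjusted p values were 0.152, 0.276 and 0.164 without control replicates 1, 2 and 3 and 0.0639 without knockout replicate 3. In each of these fits and with the block, 0 genes of the whole table were called in either direction. The DESeq2 adjusted p was 6.34e-20 and, like the edgeR value, is no test, since Pipox was chosen for its difference. In all 16 alternatives the log2 fold change stayed between −2.31 and −1.90.

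Cat (chromosome 2, 103453849 to 103485160) stood at 279, 319 and 281 CPM in controls and at 177, 103 and 167 CPM in knockouts. No knockout library reached the lowest control, and replicate 2 was the lowest of all. The log2 fold change was −0.98 (SE 0.21, edgeR adjusted p = 0.120), and the DESeq2 adjusted p was 0.00157. Cat is far more abundant than Pipox, with 20696 counts in the controls and 10025 in the knockouts. Leaving out knockout replicate 1 brought its edgeR adjusted p to 0.0120, in a fit that called 7.44% of all genes lower. The edgeR adjusted p of Cat was 0.244, 0.426 and 0.388 without control replicates 1 to 3. It was 0.131 and 0.284 without knockout replicates 2 and 3, and 0.205 with the replicate block. Of the 16 alternatives, 3 called Cat lower.

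All 8 members grouped under peroxisomal beta-oxidation had negative log2 fold changes, from −0.47 to −0.05, with a median of −0.35. This group is not the whole pathway. The acyl-CoA oxidase genes Acox2 and Acox3 were listed outside the members, and both were higher at an unadjusted p. None of the 8 members grouped here passed the edgeR adjusted threshold. Of these 8, 4 were lower at an unadjusted p (7.09% of all genes), and DESeq2 called 1 lower (1.95% of all genes). Hsd17b4, the bifunctional enzyme that hydrates and dehydrogenates very-long-chain and bile acid intermediates, stood at 209, 222 and 206 CPM in controls and at 143, 160 and 156 CPM in knockouts. The knockouts lay close together and below all controls, at a log2 fold change of −0.47 (SE 0.10, edgeR adjusted p = 0.120, DESeq2 adjusted p = 0.00136). Scp2, which encodes a thiolase and a sterol carrier from 1 gene, stood at 195, 204 and 198 CPM against 179, 135 and 153 CPM. Here knockout replicate 1 was nearest to the controls. Ech1, a dienoyl-CoA isomerase, stood at 93.4, 103 and 102 CPM against 72.7, 81.7 and 80.4 CPM. The log2 fold changes of Scp2 and Ech1 were −0.36 (SE 0.13, edgeR adjusted p = 0.239) and −0.35 (SE 0.10, edgeR adjusted p = 0.181). Eci2, an enoyl-CoA isomerase, had a log2 fold change of −0.43 at an unadjusted p below the threshold, with libraries that overlapped between genotypes.

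Ehhadh and Acaa1a, known as targets of PPAR-alpha, differed less. Ehhadh, the L-bifunctional enzyme, stood at 151 ± 4.55 CPM in controls and 146 ± 20.5 CPM in knockouts (SD, n = 3 each), with knockout replicate 1 at 122 CPM and the other two at 158 CPM. Acaa1a, the peroxisomal thiolase, was 131 ± 5.23 and 118 ± 6.82 CPM (SD, n = 3 each). Its log2 fold change was −0.15 (SE 0.10), which did not pass the threshold, and its share of reads is uncertain, since Acaa1b is nearly identical and Myd88 overlaps it on the other strand. Amacr, the racemase of branched fatty acids, and Pecr, an enoyl-CoA reductase, overlapped between genotypes, with log2 fold changes of −0.18 and −0.43. For Pecr the counts were low, 338 in controls and 242 in knockouts.

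**Figure D3:**
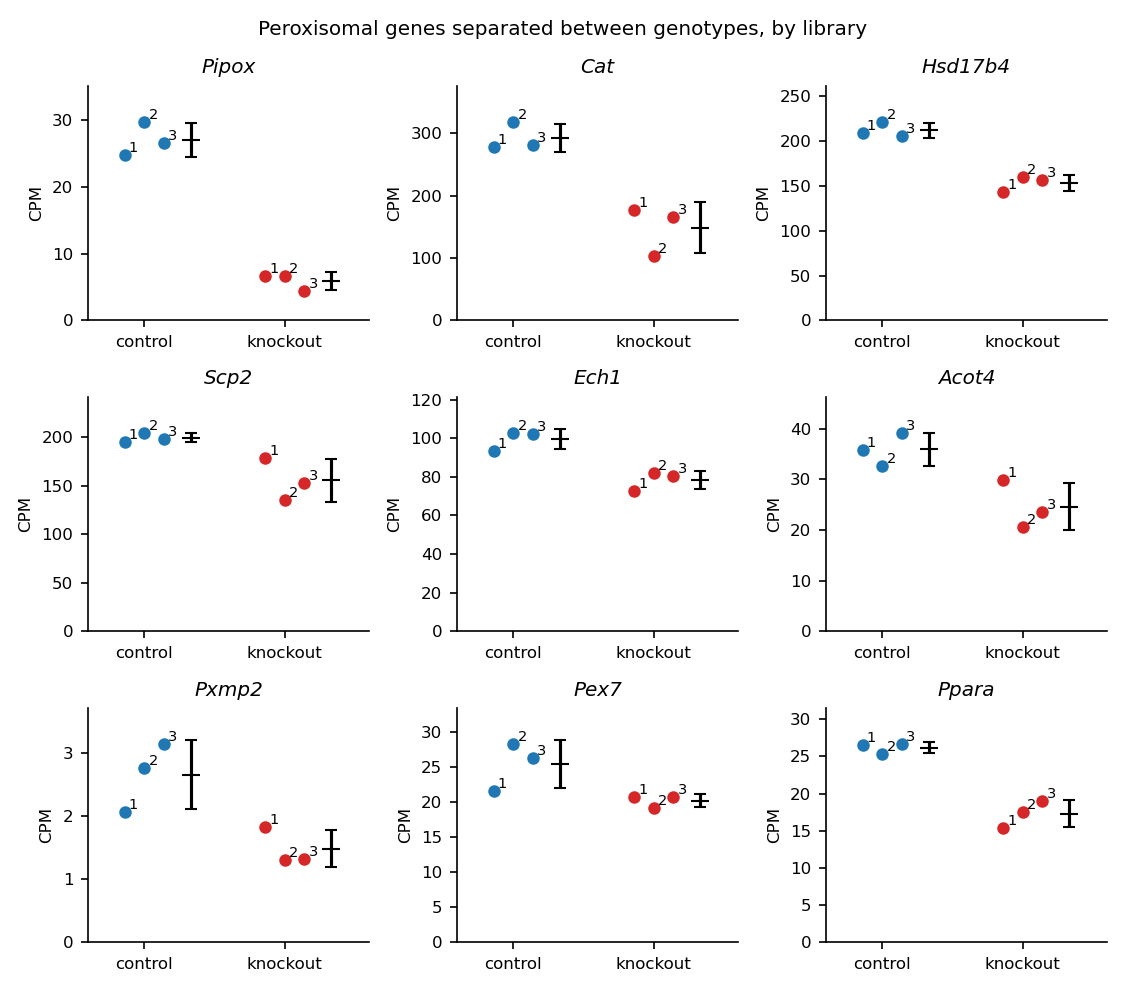
Points are CPM in each library (digits give the replicate), and the bars beside them are mean and SD (n = 3 each), for the 9 members at an unadjusted p below 0.05 whose libraries did not overlap. Every axis starts at 0, and Pipox shows the widest gap for its level, from 24.9 CPM in the lowest control to 6.71 CPM in the highest knockout.

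The enzymes of alpha-oxidation, which remove 1 carbon from branched fatty acids, did not pass a test. Phyh stood at 216, 232 and 216 CPM in controls and at 200, 214 and 300 CPM in knockouts. Knockout replicate 3 alone was above the controls, and the log2 fold change was 0.11 (SE 0.17). Hacl1, the lyase that follows Phyh, was low in all libraries (152 control and 111 knockout counts) and lay below the controls in all 3 knockouts, at a log2 fold change of −0.39 (SE 0.24). It shares exon bases with Gm49387 on the same strand.

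Of 5 enzymes that act on CoA and carnitine esters, 1 was lower and 1 higher at an unadjusted p (7.09% and 9.32% of all genes), and 0 passed the edgeR adjusted threshold. Acot4, a thioesterase of dicarboxylic CoA esters whose start-site window is given above, stood at 35.9, 32.8 and 39.2 CPM in controls and at 29.8, 20.6 and 23.5 CPM in knockouts. All knockouts were below all controls (log2 fold change −0.55, SE 0.16, edgeR adjusted p = 0.189). Its exons overlap those of Gm49366 on the same strand, and it has close copies next to it, so its share of reads is uncertain. Acot12, a thioesterase known for hydrolysing acetyl-CoA in the cytosol, stood at 50.7, 36.2 and 39.9 CPM in controls and at 45.3, 90.9 and 63.7 CPM in knockouts. Replicate 1 lay among the controls and the other knockouts above them (log2 fold change 0.66, SE 0.26, edgeR adjusted p = 0.272). Crot, which makes carnitine esters for export of shortened fatty acids and is the most abundant per kilobase of this group, stood at 212, 179 and 159 CPM against 156, 227 and 212 CPM, with overlap between the groups. Acot8, a thioesterase of broad range, and Nudt19, a CoA hydrolase, overlapped too, with log2 fold changes of 0.15 and −0.24.

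Among membrane proteins, Pxmp2, a channel of the peroxisomal membrane, was lower at an unadjusted p. It stood at 2.07, 2.75 and 3.14 CPM in controls and at 1.82, 1.31 and 1.32 CPM in knockouts. The gap between the nearest libraries was small, the gene rested on 188 and 99 counts and shares exon bases with Gm15788 on the other strand (log2 fold change −0.84, SE 0.27, edgeR adjusted p = 0.214). Abcd3, the transporter of branched and dicarboxylic acyl-CoA, stood at 464, 368 and 400 CPM against 293, 402 and 443 CPM. Knockout replicate 1 alone was below the controls, and the log2 fold change was −0.12 (SE 0.18). Pxmp4, a membrane protein, and Abcd4, a relative of Abcd3 known for cobalamin transport out of lysosomes, had log2 fold changes of 0.16 and −0.05 and overlapped.

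The peroxins were nearly level. Of 11 members, 6 had negative and 5 positive log2 fold changes (49.3% of all genes were negative), and the median was −0.02. At an unadjusted p, 1 was lower and 0 higher (7.09% and 9.32% of all genes). The 1 lower was Pex7, the receptor that imports proteins with an amino-terminal signal. Pex7 stood at 21.7, 28.4 and 26.3 CPM in controls and at 20.8, 19.2 and 20.7 CPM in knockouts. Control replicate 1 lay just above the knockouts (log2 fold change −0.33, SE 0.14, edgeR adjusted p = 0.291). Pex19, which brings membrane proteins to the organelle and is the most abundant peroxin per kilobase, stood at 78.4, 85.1 and 88.9 CPM against 81.5, 85.5 and 82.3 CPM. Its log2 fold change was −0.02 (SE 0.09). Pex3, Pex6, Pex2 and Pex16 also lay near 0, at −0.07, 0.04, 0.13 and 0.00, and Pex10 and Pex13 at −0.26 and −0.18, all with overlap. Pex5, the import receptor for proteins with a carboxy-terminal signal, was 51.2 ± 3.31 and 45.5 ± 2.53 CPM, and Pex14, its docking partner, 26.3 ± 1.46 and 27.01 ± 2.94 CPM (SD, n = 3 each). Pex11a, which takes part in division of the organelle, had the highest log2 fold change of the group, 0.21 (SE 0.17), with overlap. Scaling to library totals or to the epithelial markers turned 3 more peroxins negative (9 of 11), with medians of −0.13 and −0.12, since these scalings moved the median of all genes by −0.11 and −0.10.

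Ppara, the fatty acid receptor itself, stood at 26.5, 25.3 and 26.7 CPM in controls and at 15.4, 17.5 and 18.98 CPM in knockouts. Both groups were narrow and did not overlap (log2 fold change −0.60, SE 0.12, edgeR adjusted p = 0.118, DESeq2 adjusted p = 0.00342). Lonp2, the protease that clears damaged proteins inside the organelle, stood at 105, 113 and 96.9 CPM against 90.3, 81.5 and 96.3 CPM. The nearest libraries all but touched, and the log2 fold change was −0.23 (SE 0.11, edgeR adjusted p = 0.350).

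As a mean over the 34 tested members, the level was 5.26, 5.32 and 5.31 log2 CPM in controls and 4.96, 5.10 and 5.11 log2 CPM in knockouts. Every knockout lay below every control, and replicate 1 was the lowest. Without Pipox, the knockouts were −0.28, −0.14 and −0.11 from the control mean in replicates 1 to 3, with controls from −0.04 to 0.02. By role, beta-oxidation genes were at −0.41, −0.21 and −0.28 in the knockouts, with controls from −0.13 to 0.11. Peroxins were at −0.14, −0.02 and −0.01, with controls from −0.03 to 0.03. Set against the mean peroxin level of the same library, which takes out the scaling between libraries, Pipox was at −0.18, 0.05 and −0.15 in controls and −1.96, −2.06 and −2.69 in knockouts (log2). Cat on the same measure was at 3.31, 3.46 and 3.25 in controls and 2.76, 1.86 and 2.54 in knockouts, and Ppara at −0.08, −0.18 and −0.14 and at −0.76, −0.69 and −0.59. Both groups stayed apart for all 3 genes.

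**Figure D4:**
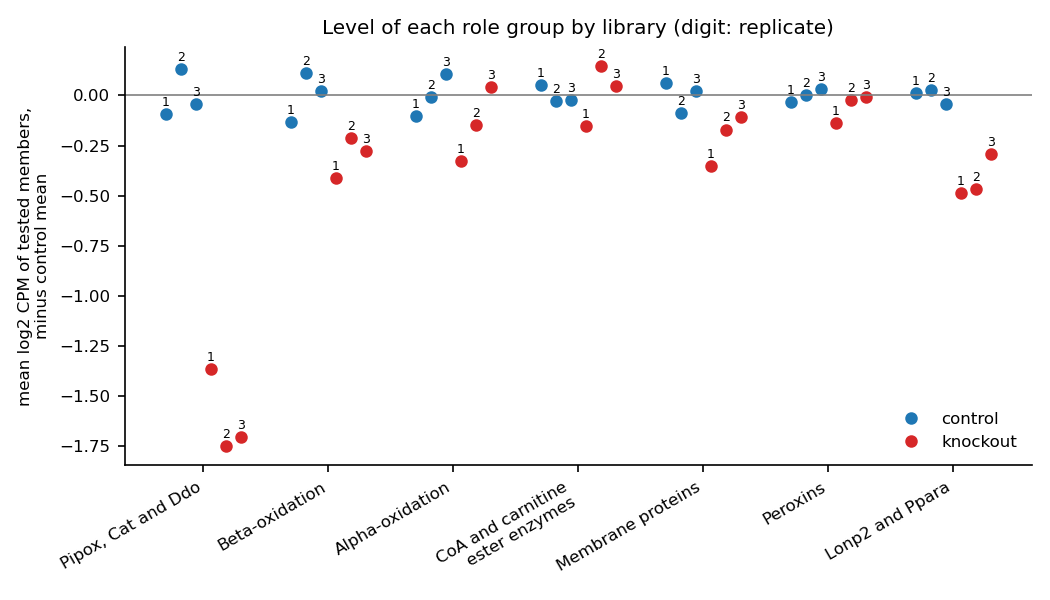
Points are the mean log2 CPM of the tested members of each role in each library, minus the control mean (digits give the replicate). The group of Pipox and Cat is lowest in the knockouts, between −1.75 and −1.37, and the peroxins lie between −0.14 and 0.03 in all libraries.

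Knockout replicate 1 stood apart from the other knockouts for part of the members. It was the lowest library for Ehhadh, Crot, Abcd3 and Phyh, and the knockout nearest to the controls for Cat, Scp2, Acot4 and Pxmp2. Without it, 6 members passed the edgeR adjusted threshold as lower, namely Pipox, Cat, Hsd17b4, Scp2, Acot4 and Ppara, and Acot12 as higher, where 7.44% of all genes were called lower and 10% higher. Both knockouts left in that fit were female by Xist, against 1 of 3 controls. With sex by Xist and Ddx3y as a term in all 6 libraries, Pipox had an adjusted p of 0.0397, and 9 members, Pipox included, were lower and 0 higher at an unadjusted p (6.01% and 7.27% of all genes). With the replicate block, 9, Pipox included, were lower and 0 higher, where 7.27% and 9.32% of all genes were.

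Of 50 listed peroxisomal genes outside the 35, 43 were tested, and 31 of these had a negative log2 fold change (72.1%, against 49.3% of all genes). At an unadjusted p, 5 were lower and 5 higher (11.6% each), shares near those of all genes (7.09% and 9.32%). All knockouts lay below all controls for 7 (16.3%, against 11.7% of all genes) and above for 3 (10% of all genes). In this list 0 passed the edgeR adjusted threshold, and DESeq2 called 2 lower and 1 higher (1.95% and 3.6% of all genes). The median log2 fold change was −0.14. The 5 lower were Dhrs4, Zadh2, Baat, Decr2 and Acbd5, and the 5 higher were Far1, Paox, Agps, Acox2 and Acox3. Far1, a reductase that makes the fatty alcohols of ether lipids, stood at 4.68 ± 0.210 and 9.12 ± 0.961 CPM (SD, n = 3 each), with all knockouts above all controls (log2 fold change 0.96, SE 0.16, edgeR adjusted p = 0.0950). Zadh2, an oxidoreductase, stood at 45.3 ± 4.10 and 29.6 ± 5.94 CPM (SD, n = 3 each) without overlap (log2 fold change −0.62, SE 0.16, edgeR adjusted p = 0.163). Dhrs4, a peroxisomal carbonyl reductase, stood at 53.6 ± 5.08 and 38.3 ± 1.80 CPM (SD, n = 3 each; log2 fold change −0.48, SE 0.11, edgeR adjusted p = 0.127).

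Mitochondria shorten the long and medium chains by a beta-oxidation of their own. Of its 18 listed genes, 8 were lower and 0 higher at an unadjusted p (44.4% and 0%, against 7.09% and 9.32% of all genes), 0 passed the edgeR adjusted threshold, DESeq2 called 3 lower (1.95% of all genes), and the median log2 fold change was −0.21. Eci1, the mitochondrial enoyl-CoA isomerase, stood at 25.4, 35.1 and 32.2 CPM in controls and at 15.9, 15.9 and 18.1 CPM in knockouts (log2 fold change −0.89, SE 0.15, edgeR adjusted p = 0.0988). Decr1, a dienoyl-CoA reductase, and Hadh, the most abundant gene of the list, were lower at unadjusted p with log2 fold changes of −0.42 and −0.45. Of 19 tested PPAR targets outside the peroxisome, 3 were lower (Fabp1, Plin2 and Cd36) and 1 was higher (Slc22a5) at an unadjusted p (15.8% and 5.26%, against 7.09% and 9.32% of all genes), 0 passed an adjusted threshold by edgeR or DESeq2, and the median was −0.01. Fabp1, the liver-type fatty acid binding protein, stood at 1529 ± 159 and 1067 ± 169 CPM (SD, n = 3 each). Fabp2, the most abundant gene of that list, overlapped.

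Among 11 tested nuclear receptors and coactivators, 4 were lower and 0 higher at an unadjusted p (7.09% and 9.32% of all genes). The 4 were Hnf4g, Nr1h3, Ppargc1a and Esrra. In this list 0 passed the edgeR adjusted threshold, and DESeq2 called Hnf4g lower (1.95% of all genes). Hnf4g stood at 443, 552 and 530 CPM in controls and at 372, 312 and 278 CPM in knockouts (log2 fold change −0.66, SE 0.16, edgeR adjusted p = 0.136). Its relative Hnf4a, the most abundant gene of the list, overlapped (871 and 927 CPM). Ppargc1a, a coactivator of PPAR-alpha, was 139 ± 18.8 and 81.3 ± 30.1 CPM (SD, n = 3 each), with all knockouts below the controls. Of 8 tested genes around sarcosine and lysine breakdown, the pathways that Pipox serves, 2 were lower (Hykk and Etfdh) and 1 higher (Aldh7a1) at an unadjusted p (7.09% and 9.32% of all genes), and the median was 0.00. DESeq2 called 1 of the 8 lower and 0 higher (1.95% and 3.6% of all genes), and 0 passed the edgeR adjusted threshold. Hykk, the hydroxylysine kinase gene, stood at 11.8, 13.6 and 12.8 CPM in controls and at 9.16, 3.92 and 5.69 CPM in knockouts (log2 fold change −1.03, SE 0.30, edgeR adjusted p = 0.181).

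**Figure D5:**
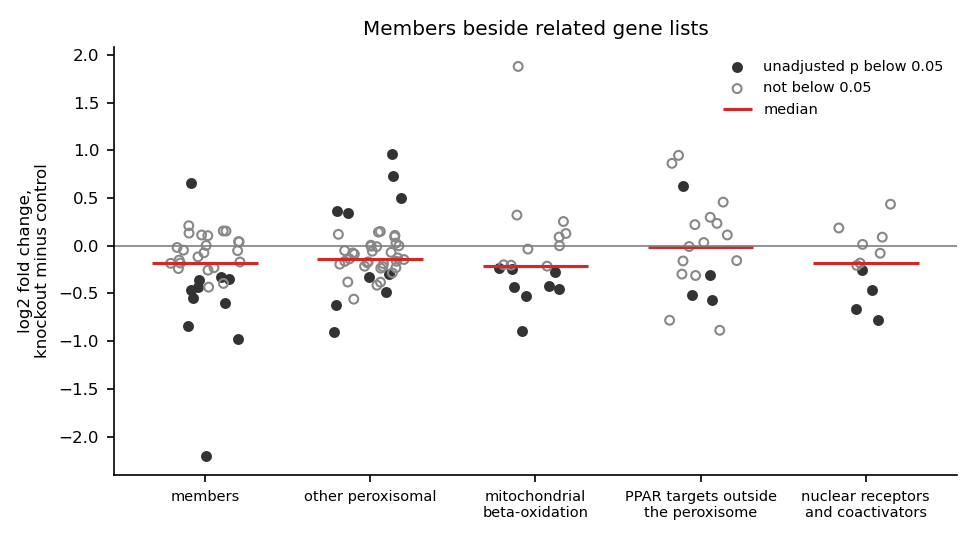
Points are edgeR log2 fold changes of single tested genes (knockout minus control), filled where the unadjusted p was below 0.05, with a line at each list's median. The sarcosine and lysine list is not plotted. Medians of the 5 lists plotted lie between −0.21 (mitochondrial beta-oxidation) and −0.01 (PPAR targets), and the members hold the lowest point, Pipox at −2.20.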

How the data were processed

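The table that the authors deposited holds raw counts for 54446 genes. The submitters' processing notes name mm10 and the tools STAR 2.5.0a, bcl2fastq 2.17, Trim Galore and FastQC. Neither the read counter nor its strand setting and annotation is given in the sources used here, so overlapping genes cannot be told apart, and 14 members share exon bases with a gene on the other strand. Per the labels' protocols, RNA was poly-A selected, and a kit that removes ribosomal RNA is named too.

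From the counts, 15068 genes were tested with edgeR 4.0.16 (R 4.3.3): default filter (minimum count 10), TMM scaling, and a two-sided quasi-likelihood test on genotype alone, adjusted by Benjamini-Hochberg over all genes tested, threshold 0.05. Standard errors were derived from the F statistic. Levels in log2 CPM used a prior count of 2. Exon lengths came from GENCODE mouse release 21, which matched all 35 members; they join all transcripts, so levels per kilobase are rough. Groups came from the titles. Each mouse gave 1 library.

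The members and lists were chosen with earlier results of these data known. Named with full values are Pipox, members past a threshold without overlap, and the most abundant per kilobase of each role; from other lists, genes with the smallest p and the most abundant, not all of them reported here. Eci2, Ehhadh, Acaa1a and further members were described to account for every member. Deviations from group means correlated at 0.117, 0.119 and 0.149 for libraries of the same replicate number, so blocked values are given where they changed a call; no label says what a number marks. Alternatives were other scalings, filters, DESeq2 1.42.0, limma-voom (limma 3.58.1), the replicate block, sex by Xist and Ddx3y, and leaving out each library. Leaving out the 3 libraries that went against the sex of the series text was added after seeing the data. The tests were tested on simulated data first.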

Additional observations from a re-analysis of the deposited data

How the results depend on the processing

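The direction of Pipox and the negative median and mean level of the members held under every alternative that gave a value. Scaling to library totals gave a median log2 fold change of −0.29 and a mean level difference of −0.35, and scaling to the epithelial markers gave −0.28 and −0.34, in both cases with the median of all genes moved by a like amount. The number of members called lower was 2 with no filter on low counts and 4 with DESeq2 (0.312% and 1.95% of all genes). With the replicate block it was 0 (0% of all genes). Pipox then had a log2 fold change of −2.22 that no longer passed. In that fit 0 members were higher at an unadjusted p (9.32% of all genes). Members higher at an unadjusted p also numbered 0 with the epithelial scaling and with sex as a term (6.41% and 7.27% of all genes). With the 3 libraries that match the sex of the series text, 1 control and 2 knockouts, the Pipox log2 fold change was −1.90. The median of the members in that fit was −0.15, against 0.04 over all genes. No test result is given for it, since the lone control would be assumed to vary like the knockouts. Leaving out each library in turn gave 0 to 6 members called lower (0% to 7.44% of all genes) and 0 to 1 called higher (0% to 10%). At an unadjusted p, 6 to 9 members were lower (3.64% to 15.8% of all genes) and 0 to 2 higher (6.19% to 17.9%). Of the 50 other peroxisomal genes listed, the same fits gave 5 to 12 at an unadjusted p, both directions counted together. These counts stand beside the same 3.64% to 15.8% of all genes lower and 6.19% to 17.9% higher. Medians of the members were −0.19 to −0.14, mean level differences −0.25 to −0.19, and the Pipox log2 fold change −2.29 to −2.004. The highest numbers of called members, higher members and other peroxisomal genes came without knockout replicate 1. Fewer samples were fitted in each of these, and the cause of the other changes was not tested. Depth limited Ddo, Hacl1 and Pxmp2, which rest on few counts.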
